A study of Mus musculus with 12 samples.

Results

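Notch signalling genes were followed through the developing upper face of the mouse: the receptors Notch1, Notch2 and Notch3, the ligands Jag1, Jag2 and Dll1, and the target genes Hes1, Hey1, Hey2 and Heyl. They were taken by gene symbol, and all 10 were found once among the 53392 genes of the deposited tables. Polyadenylated RNA had been sequenced in 12 libraries from embryos of the 129S4 background, in 4 groups of 3 biological replicates. The first pair of groups was palatal shelf mesenchyme at E13.5, from Pdgfra+/+ embryos (wild type) and PdgfraPI3K/PI3K embryos (PI3K), which are homozygous for a knock-in allele of the receptor tyrosine kinase gene Pdgfra. The second pair was maxillary process mesenchyme at E11.5, from Srsf3fl/fl;Wnt1-Cre+/+ embryos (control) and Srsf3fl/fl;Wnt1-Cre+/Tg embryos (labelled Srsf3 cKO here). Both maxillary groups were homozygous for the floxed allele of Srsf3, a splicing factor gene, and differed in the Wnt1-Cre transgene. Wnt1-Cre acts in the neural crest lineage, so endothelium, muscle and ectoderm of the same tissue lie outside its reach. Per the labels, trypsin had been used to strip the ectoderm in all groups.

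Notch receptors are single-pass membrane proteins that are activated by Jagged and Delta ligands on a neighbouring cell. Ligand binding exposes the receptor to ADAM proteases and then to gamma-secretase, and the freed intracellular domain enters the nucleus, where it joins the DNA-binding protein RBPJ and switches on target genes. The Hes and Hey targets encode basic helix-loop-helix repressors, and Fringe enzymes modify the receptors with sugars that change which ligand they answer. In the palate, Jag2 of the oral epithelium is known to be needed for shelf elevation and fusion, and in blood vessels Notch1, Notch3, Notch4, Jag1, Hey2 and Heyl act in endothelium and in the mural cells around it.

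Library totals were 30509338 to 37406960 estimated counts in palatal shelves and 15932541 to 27887654 in maxillary processes. The gene total of Srsf3 did not tell the maxillary groups apart: it was 621, 595 and 562 CPM (estimated counts scaled to a common library size) in controls and 478, 694 and 640.3 CPM for the libraries labelled Srsf3 cKO, a log2 fold change of 0.03 (SE 0.14, adjusted p = 0.954, edgeR). Deletion of part of that gene was not analysed here. The level of Pdgfra, which a knock-in need not alter, differed by 0.02 on the log2 scale between PI3K and wild type (SE 0.10, adjusted p = 0.9997) in edgeR on counts. In TPM, a value scaled for transcript length and depth, Pdgfra had 139.8, 130.3 and 145 in wild type and 186, 200.5 and 243 in PI3K, which did not overlap. In CPM it had 483, 458 and 488 in wild type and 436, 465 and 544 in PI3K, which overlapped. The TPM difference of Pdgfra thus lies in the ratio of count to TPM, the effective length described further on. The cause of that was not tested. Markers of facial mesenchyme were high in every group, with a summed level of 965 to 3392 TPM. Markers of ectoderm were also high in palatal shelves despite the trypsin step, at 713 to 920.5 TPM over 12 genes in wild type and 394 to 941 TPM in PI3K, against 1.91 to 7.78 TPM in maxillary controls and 9.35 to 18.4 TPM in the libraries labelled Srsf3 cKO. The third PI3K library had the lowest of the palatal ectoderm sums. Markers of endothelium summed to 316 to 388 TPM in palatal shelves, 234 to 243 TPM in maxillary controls and 301 to 556 TPM in the libraries labelled Srsf3 cKO, the first of which was highest. In such bulk samples, fewer cells of a type and less RNA per cell cannot be told apart.

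**Figure D1:**
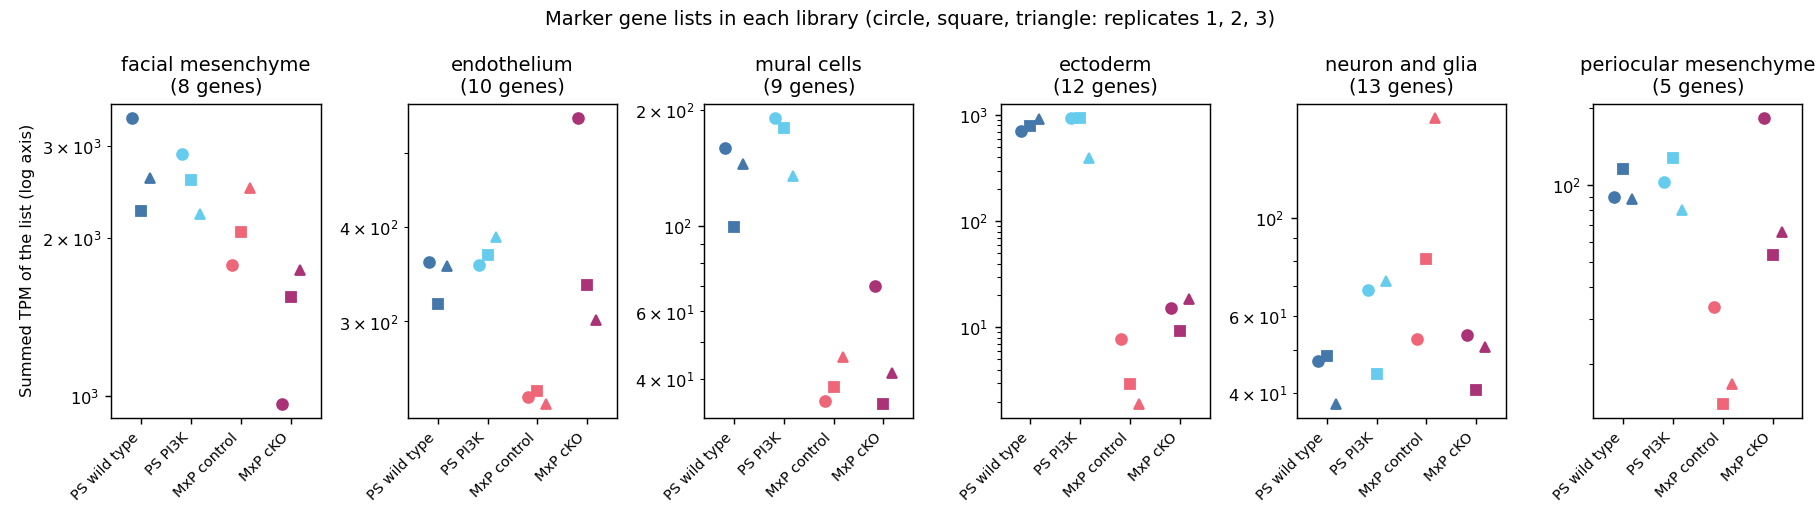
Summed TPM (log axis) of 6 marker gene lists in each of the 12 libraries. PS, palatal shelf; MxP, maxillary process; points are single libraries. Palatal shelves hold ectoderm sums of 394 TPM and above, and no maxillary library exceeds 18.4 TPM; the first library labelled cKO has the highest endothelium sum and the lowest facial mesenchyme sum.

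By GENCODE M21 (GRCm38) all members are protein-coding genes. Gene IDs are given as deposited, and GENCODE M21 lists Notch3 as ENSMUSG00000038146.8. The receptor genes are Notch1 (ENSMUSG00000026923.15, chr2:26457903-26516663, minus strand), Notch2 (ENSMUSG00000027878.11, chr3:98013527-98150361, plus strand) and Notch3 (ENSMUSG00000038146.7, chr17:32120820-32166852, minus strand). The ligand genes are Jag1 (ENSMUSG00000027276.7, chr2:137081456-137116644, minus strand), Jag2 (ENSMUSG00000002799.6, chr12:112907819-112929776, minus strand) and Dll1 (ENSMUSG00000014773.13, chr17:15367354-15376872, minus strand). The target genes are Hes1 (ENSMUSG00000022528.8, chr16:30064384-30067796, plus strand), Hey1 (ENSMUSG00000040289.8, chr3:8663359-8667256, minus strand), Hey2 (ENSMUSG00000019789.9, chr10:30832359-30842801, minus strand) and Heyl (ENSMUSG00000032744.4, chr4:123233556-123249875, plus strand). Notch1, Notch3 and Dll1 overlap annotated noncoding transcripts of the opposite strand, and Notch1, Notch2 and Jag2 overlap microRNA or unconfirmed models of the same strand. Use of strand is not given in the sources used here, so a share of the reads of these genes could belong to the overlapping models.

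Within wild-type palatal shelf the members spanned from Hes1, the most abundant, to Hey2, the least. Hes1, the classical repressor of the family, had 62.8, 76.5 and 69.4 TPM. It was followed by Notch3 with a mean of 44.8 TPM ± 2.98 (SD, n = 3), Notch2 with 34.6 ± 4.63, Jag1 with 31.6 ± 3.86 and Jag2 with 29.7 ± 5.60. The libraries of Notch2, Jag1 and Jag2 overlapped, so these 3 are not separated in level. Below them, Notch1 averaged 21.0 TPM and Hey1 17.1 TPM, again with overlapping libraries, Heyl 8.24 TPM, Dll1 3.83 TPM and Hey2 2.76 TPM. The PI3K libraries gave the same sequence of means, with Hes1 at 85.1 TPM and Hey2 at 2.48 TPM.

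The order was different in control maxillary process, where Hey2 was the member with the highest mean. Hey2 had 13.7, 35.6 and 109 TPM in the 3 controls, a spread of 7.96 times from lowest to highest. Notch3 followed with 51.9 TPM ± 6.28 (SD, n = 3), and the libraries of the pair overlapped. Hes1 with 34.2 TPM, Notch2 with 33.6 TPM and Hey1 with 19.8 TPM came next, each overlapping its neighbour. Notch1 averaged 10.5 TPM, Jag1 8.88 TPM, Jag2 3.86 TPM and Heyl 2.90 TPM, each overlapping the next, and Dll1 was lowest at 0.331 TPM. In the libraries labelled Srsf3 cKO, Notch3 had the highest mean, 57.5 TPM ± 15.6, and Dll1 the lowest, 1.04 TPM ± 1.22.

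**Figure D2:**
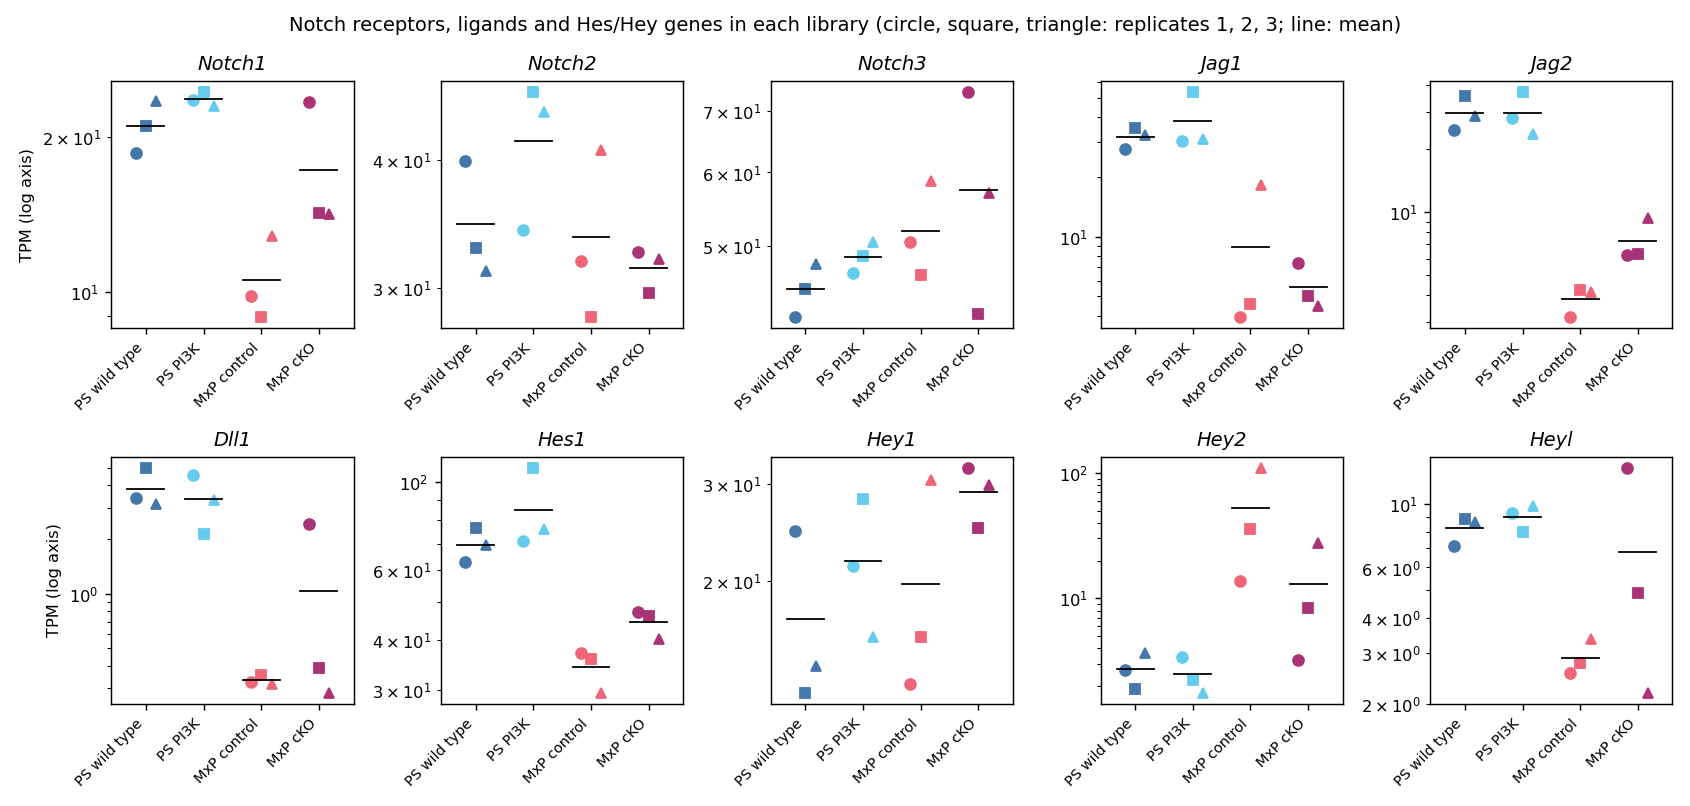
TPM (log axis) of the 10 genes in each library, by group; points are single libraries and the black line is the group mean. Jag2 sits apart between palatal shelf and maxillary process, and Hey2 runs the other way, with 13.7 to 109 TPM in maxillary controls and 1.90 to 3.69 TPM in wild-type palatal shelves.

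Summed over genes, receptor transcripts were at similar levels in both tissues and ligand transcripts were not. Summed receptor TPM was 100.5 ± 1.93 (SD, n = 3) in wild-type palatal shelf, 114 ± 8.36 in PI3K, 96.1 ± 14.9 in maxillary control and 106 ± 21.7 in the libraries labelled Srsf3 cKO. Summed ligand TPM was 65.2 ± 10.1 in wild-type palatal shelf and 71.1 ± 18.6 in PI3K, against 13.1 ± 8.28 in maxillary control and 13.9 ± 2.19 in the libraries labelled Srsf3 cKO. Within the receptors, Notch1 made up 18.5%, 21.3% and 22.9% of the total in wild-type palatal shelf and 10.7%, 10.7% and 11.4% in maxillary control. Notch3 made up 41.7%, 45.5% and 46.7% in the first and 54.7%, 55.6% and 52.2% in the second. The shares of these 2 receptors did not overlap between the tissues, whereas the share of Notch2 did, at 34.5% and 34.9% on average. Jag1 and Jag2 split the ligand total nearly evenly in wild-type palatal shelf, at 48.7% and 45.4%. In the third maxillary control library Jag1 alone made up 80.2%.

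**Figure D3:**
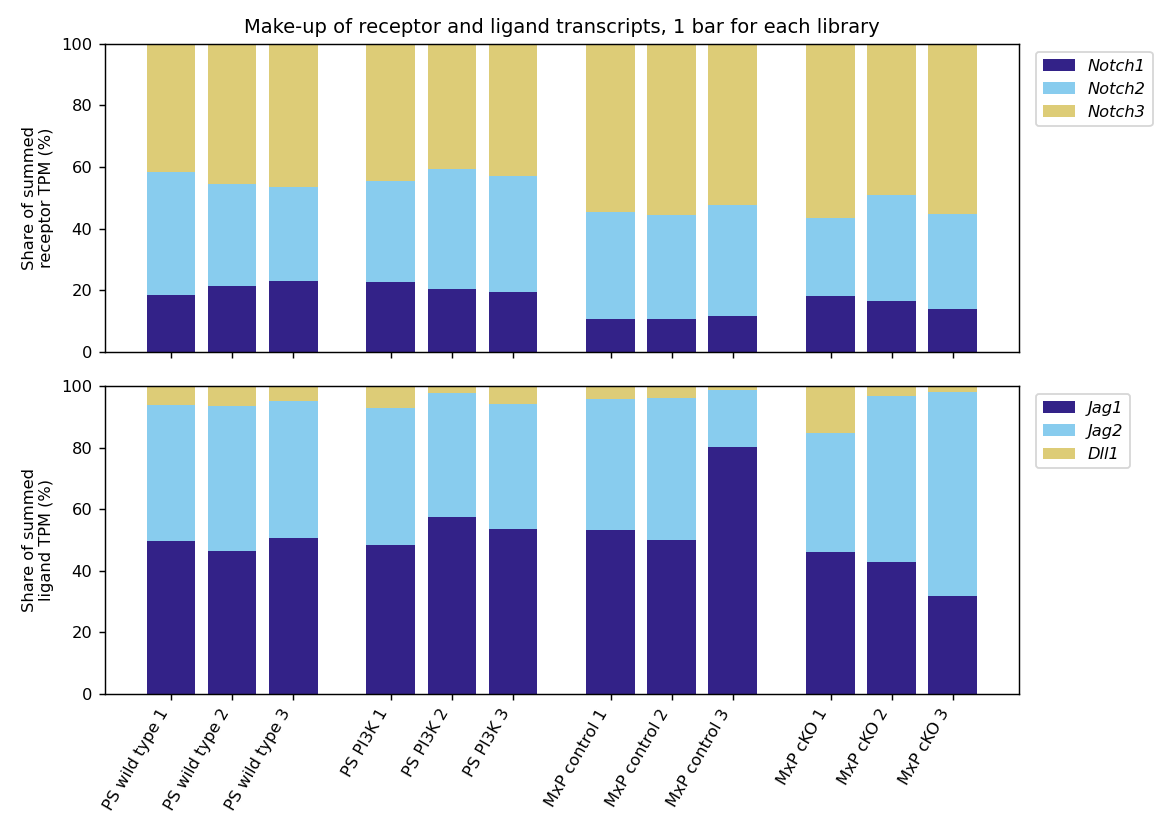
Share of each gene in the summed TPM of the 3 receptors (top) and the 3 ligands (bottom), 1 bar for each library, as a percentage. Notch1 takes 18.5% to 22.9% of receptor transcripts in wild-type palatal shelf and 10.7% to 11.4% in maxillary control, and the third maxillary control stands out for its Jag1 share of 80.2%.

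Promoter sequence is shown for Hey2, a target gene lower in palatal shelf, for the ligand gene Jag1 and for Lfng, the Fringe gene of the pathway described further on. The sequences come from RefSeq on GRCm38.p6, which listed 7 of the 10 members, and run in the direction of the gene up to its first annotated exon. Capitals mark TGGGAA or its reverse complement TTCCCA, the core letters of the RBPJ motif. Hey2 is shown from chr10:30842802-30843033 (minus strand), Jag1 from chr2:137116645-137116770 (minus strand) and Lfng from chr5:140607091-140607319 (plus strand).
Hey2: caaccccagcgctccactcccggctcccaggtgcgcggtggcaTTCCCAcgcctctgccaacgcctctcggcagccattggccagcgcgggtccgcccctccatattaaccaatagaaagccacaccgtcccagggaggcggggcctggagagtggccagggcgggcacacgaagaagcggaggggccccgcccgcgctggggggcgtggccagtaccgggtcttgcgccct
Jag1: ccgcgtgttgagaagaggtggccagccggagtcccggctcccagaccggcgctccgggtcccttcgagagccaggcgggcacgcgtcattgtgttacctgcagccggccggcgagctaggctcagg
Lfng: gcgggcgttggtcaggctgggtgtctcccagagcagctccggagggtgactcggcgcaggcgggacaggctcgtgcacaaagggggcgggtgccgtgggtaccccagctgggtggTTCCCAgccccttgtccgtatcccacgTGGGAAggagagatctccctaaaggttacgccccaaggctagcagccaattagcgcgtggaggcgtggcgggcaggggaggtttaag
Hey2 was the only one of the 7 listed members with the core letters in the 250 bases before its start, on the reverse strand from position -207. The target genes Hes1, Hey1 and Heyl were not listed, so Hey2 was the only target among the members examined. Lfng held them at -135 in reverse and at -108 in forward orientation. These letters are common: 21.6% of the 32851 promoter windows in the table held them on either strand. Counted by gene, 11 of the 38 other pathway genes listed there held them in at least 1 window, and some of these genes have more than 1 window. The longer form CGTGGGAA, or its reverse complement TTCCCACG, contains the core and was in the windows of Hey2 and Lfng and in 0.636% of all windows. A match of letters is a description of the sequence, and binding was not measured.

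Wild-type palatal shelf at E13.5 and control maxillary process at E11.5 are successive stages of the same facial primordium, and the libraries allow a comparison that the series did not set out as such. It differs at once in stage, tissue, Srsf3 allele and deposited table, which cannot be told apart. Of the 10 members, 8 passed a false discovery rate (FDR) of 0.05 in edgeR, where 50.6% of all 15752 genes tested did. Of these, 6 were higher in palatal shelf (27.1% of all genes) and 2 were lower (23.4% of all genes). Over all genes 53.7% of calls were higher in palatal shelf, and 70.9% with log2(TPM + 1). The same 8 had groups that did not overlap, as had 62% of all genes. The median log2 difference (palatal shelf minus maxillary process) of the members was 0.87, beside 0.03 over all genes tested.

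All 3 ligands were higher in palatal shelf. Jag2, a Jagged ligand, had 48.6, 69.5 and 59.0 CPM in palatal shelf and 8.17, 6.27 and 8.47 CPM in maxillary process. The groups were far apart, with a mean ratio of 7.68 and a log2 difference of 2.94 (SE 0.17, adjusted p = 4.09e-05, edgeR). Dll1, a Delta ligand, had 5.45, 7.29 and 5.67 CPM against 0.713, 0.776 and 0.648 CPM, which rests on only 11 to 14 estimated counts in each maxillary library. Its log2 difference was 3.10 (SE 0.25, adjusted p = 0.000154). Jag1 had 75.1, 90.1 and 85.3 CPM against 12.6, 16.2 and 56.9 CPM, so that the third maxillary library lay well above the other two. The log2 difference of Jag1 was 1.54 (SE 0.50, adjusted p = 0.0356). That call was lost when any library except the third maxillary control was left out (adjusted p up to 0.120), and without the third maxillary control the difference was 2.50 (adjusted p = 0.000137).

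Among the receptors, Notch1 was higher and Notch3 was lower in palatal shelf, and Notch2 did not pass the test. Notch1 had 98.8, 112 and 122 CPM in palatal shelf and 59.9, 54.0 and 72.1 CPM in maxillary process, with no overlap. The log2 difference was 0.83 (SE 0.12, adjusted p = 0.00147). Notch3, the receptor best known from mural cells, had 188, 202 and 213 CPM against 259, 237 and 279 CPM, again with no overlap in CPM, although its TPM values of 41.9 to 47.8 and 46.5 to 58.8 did overlap. Its log2 difference was small, -0.37 (SE 0.09, adjusted p = 0.0109), and its call was lost without the first palatal library (adjusted p = 0.0501), with all 4 groups in 1 fit (0.0733) and on the TPM scale (0.221). Notch2 had 234, 193 and 181 CPM against 215, 182 and 252 CPM. Its difference of -0.10 (SE 0.14, adjusted p = 0.598) turned to 0.05 on the TPM scale, where the median of all genes moved from 0.03 to 0.16.

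The 4 target genes did not move together. Hes1 had 44.0, 54.0 and 47.8 CPM in palatal shelf and 29.8, 27.7 and 20.0 CPM in maxillary process, a log2 difference of 0.91 (SE 0.16, adjusted p = 0.00335). Heyl had 17.8, 20.5 and 19.7 CPM against 7.26, 7.82 and 8.79 CPM, a difference of 1.27 (SE 0.13, adjusted p = 0.00036). In both genes every palatal library lay above every maxillary one. Hey2 ran the opposite way, with 3.65, 2.58 and 4.93 CPM in palatal shelf and 21.0, 54.1 and 154 CPM in maxillary process. Even the lowest maxillary library exceeded the highest palatal one, and the log2 difference was -4.37 (SE 0.71, adjusted p = 0.00225). Without the third maxillary control it was -3.38, and it stayed past the threshold in each fit that left out 1 library. Hey1 had 29.9, 14.7 and 16.5 CPM against 15.95, 22.7 and 39.2 CPM, and these overlapped (log2 difference -0.35, SE 0.37, adjusted p = 0.457).

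Cell-type markers moved along with this comparison. All 12 ectoderm markers were higher in palatal shelf, with a median log2 difference of 7.25, as were 7 of 8 mural markers tested and 6 of 10 endothelial markers at FDR 0.05. Mural sums were 99.6 to 160 TPM in wild-type palatal shelf and 35.2 to 45.6 TPM in maxillary control, with the marker Higd1b at 0 in all 12 libraries. The part of these cell types in the differences of Jag2, Jag1, Dll1, Notch1, Notch3 and the targets was not tested. Neuron and glia markers summed to 52.9, 81.0 and 169 TPM in the 3 controls, highest in the third, which was also the library with the most Hey2 and Jag1. Facial mesenchyme sums (1774, 2056 and 2488 TPM) and mural sums (35.2, 38.3 and 45.6 TPM) rose in the same order. Most of each mural sum was Mcam (26.2, 28.4 and 33.5 TPM). Acta2 and Tagln rose with it, whereas Rgs5 (0.840, 0.661 and 0.118 TPM) and Abcc9 (3.59, 2.69 and 2.62 TPM) fell. Skeletal muscle markers also summed highest in the third, at 7.35 TPM. The other marker lists had their highest sum in the first or second control. The part of any of these cells in the third library's values was not tested.

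Of 47 other Notch pathway genes, 43 were tested here, and 19 were higher and 5 were lower in palatal shelf at FDR 0.05, beside 27.1% and 23.4% of all genes. Their median log2 difference was 0.17. The largest were Dlk2 (3.88, SE 0.43) and Dlk1 (2.11, SE 0.42), which encode atypical Delta-like proteins, Dtx1 (2.75, SE 0.58), which encodes a Deltex ubiquitin ligase, and Lfng (2.54, SE 0.25). Dlk2 was near the floor in maxillary control, at 0.195, 0.657 and 0.231 CPM. Dtx1 was low and uneven there, at 1.17, 2.57 and 9.07 CPM. Lfng had 13.48, 18.7 and 14.2 CPM in palatal shelf and 1.82, 2.63 and 3.42 CPM in maxillary process, with no overlap. Parts of the cleavage machinery were higher too, among them Furin (1.101, SE 0.13), which cuts the receptor during its maturation, and the gamma-secretase subunit genes Psen2 (0.79, SE 0.20) and Ncstn (0.40, SE 0.08). The feedback gene Nrarp (0.87, SE 0.23), the Fringe gene Rfng (0.51, SE 0.10) and the coactivator genes Maml2 (1.06, SE 0.18) and Maml3 (0.56, SE 0.09) also passed the test, those of Nrarp and Maml3 not in every alternative. The other higher genes were Dtx3, Dtx3l, Hes6, Neurl1a, Neurl1b, Numbl, Poglut1 and Tle2, from 0.20 for Poglut1 to 1.18 for Neurl1b. The 5 lower genes were Adam10 (-0.28, SE 0.07), Mib1 (-0.34, SE 0.09), Snw1 (-0.32, SE 0.09), Tle3 (-0.77, SE 0.13) and Rbpj (-0.25, SE 0.09), and on the TPM scale, log2(TPM + 1), the calls were 21 higher and 1 lower and Adam10 turned to 0.0468. Of the 24 calls, 13 held in every alternative tried, and these did not include any of the 5 lower genes.

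**Figure D4:**
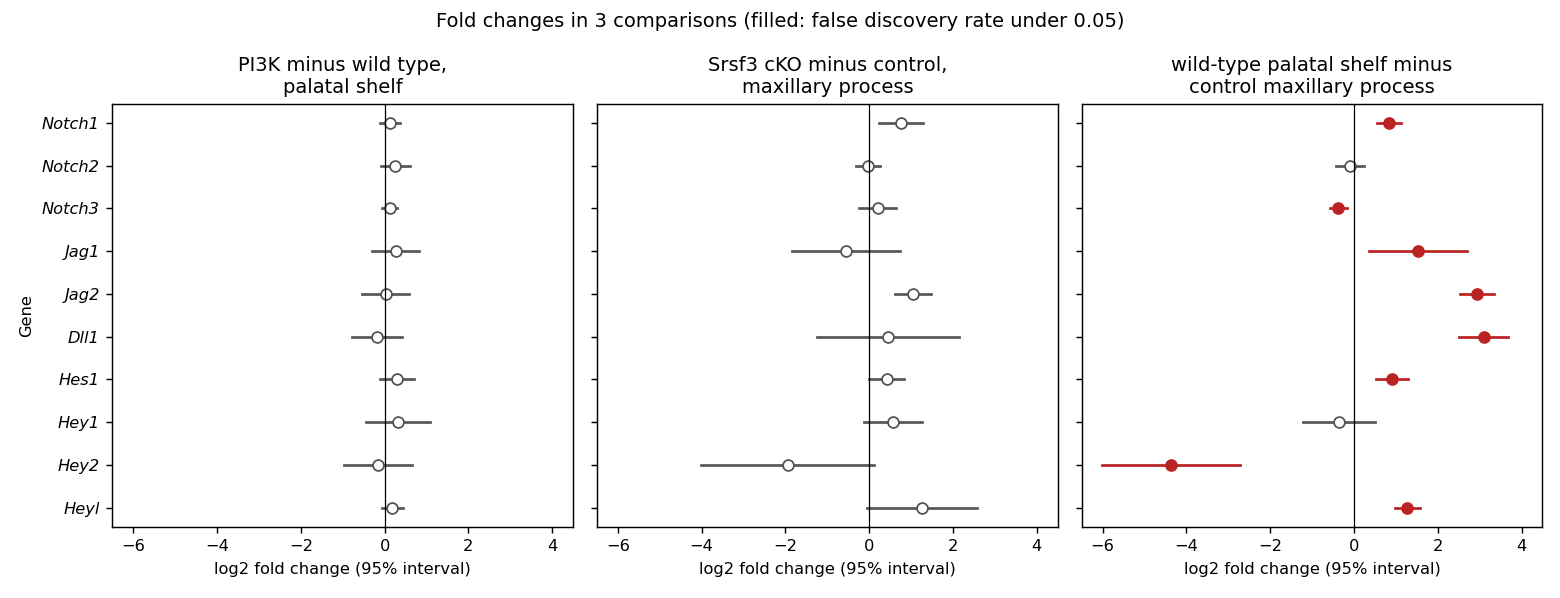
Log2 fold change of the 10 genes with its 95% interval (edgeR) in 3 comparisons; filled red points passed an FDR of 0.05. Only the comparison of palatal shelf with maxillary process holds filled points, 6 to the right and 2 to the left, with Hey2 farthest left at -4.37.

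In the maxillary process, the libraries labelled Srsf3 cKO were compared with controls to ask how carrying Wnt1-Cre beside floxed Srsf3 alleles bears on gene levels. No member passed an FDR of 0.05 in edgeR, where 12 of 14254 genes did (0.0842%). At an unadjusted p under 0.05 there were 3 members, all higher, beside 12.2% of all genes. DESeq2 called 2 of them, Jag2 and Notch1, where it called 376 of 16192 genes tested. With limma on log2(TPM + 1) 0 were called, where 7 of 14254 genes were. The groups did not overlap for 2 members, beside 18.2% of all genes. The median log2 difference (Srsf3 cKO minus control) was 0.43 over the members and 0.004 over all genes.

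Jag2 came nearest to a call. It had 8.17, 6.27 and 8.47 CPM for controls and 17.6, 13.49 and 16.1 CPM for the libraries labelled Srsf3 cKO. Every one of the latter lay above every control, with a mean ratio of 2.06 and a log2 difference of 1.04 (SE 0.19, adjusted p = 0.118, edgeR). In DESeq2 its adjusted p was 0.000546, and over all alternatives it ran from that value to 0.530. Jag1 had 12.6, 16.2 and 56.9 CPM for controls and 26.1, 16.3 and 15.7 CPM for the libraries labelled Srsf3 cKO (log2 difference -0.57, SE 0.55, adjusted p = 0.731), and without the third control the difference was 0.44. Dll1 had 0.713, 0.776 and 0.648 CPM beside 2.06, 0.265 and 0.62 CPM (log2 difference 0.45, SE 0.72, adjusted p = 0.850), with 39.0 estimated counts in the first library labelled Srsf3 cKO and 7 and 11 in the others, and without that library it was -0.72.

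Of the receptors, Notch1 had 59.9, 54.0 and 72.1 CPM for controls and 143, 88.3 and 83.4 CPM for the libraries labelled Srsf3 cKO. The groups did not overlap, and the log2 difference was 0.76 (SE 0.22, adjusted p = 0.292, edgeR; 0.0240 in DESeq2). The first library labelled Srsf3 cKO was the highest, and without it the difference was 0.47 (adjusted p = 0.718). Notch3 showed the same high library, with 377 CPM in the first and 221 and 291 CPM in the others, beside 259, 237 and 279 CPM in controls (log2 difference 0.20, SE 0.19). Notch2 had 219, 203 and 211 CPM beside 215, 182 and 252 CPM (log2 difference -0.03, SE 0.12). The vascular receptor gene Notch4, which is not a member, had 23.3, 24.7 and 21.3 CPM for controls and 44.5, 31.0 and 29.5 CPM for the libraries labelled Srsf3 cKO (log2 difference 0.60, SE 0.18, adjusted p = 0.292).

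Among the targets, Hes1 passed only the unadjusted threshold. It had 29.8, 27.7 and 20.0 CPM for controls and 38.0, 35.7 and 28.9 CPM for the libraries labelled Srsf3 cKO, which overlapped (log2 difference 0.41, SE 0.18, adjusted p = 0.408). Hey1 had 15.95, 22.7 and 39.2 CPM beside 38.4, 34.3 and 42.9 CPM (log2 difference 0.56, SE 0.30, adjusted p = 0.503). Hey2 had 21.0, 54.1 and 154 CPM for controls and 4.91, 13.1 and 42.1 CPM for the libraries labelled Srsf3 cKO. Inside the groups Hey2 spread by 7.35 and 8.57 times from lowest to highest, and the log2 difference of -1.95 (SE 0.88) did not pass the test (adjusted p = 0.433). Without the third control it was -0.91. Heyl had 7.26, 7.82 and 8.79 CPM for controls and 36.6, 14.2 and 6.15 CPM for the libraries labelled Srsf3 cKO, so its log2 difference of 1.26 (SE 0.56, adjusted p = 0.427) rests on the first of them and was 0.36 without it.

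Cell-type markers differed in this comparison too. All 10 endothelial markers had higher means in the libraries labelled Srsf3 cKO, 9 of them with an unadjusted p under 0.05 in edgeR, with a median log2 difference of 0.79. The first library labelled Srsf3 cKO, which held the most Notch1, Notch3, Notch4 and Heyl, also had the highest endothelium sum (556 TPM, beside 335 and 301 TPM in the others) and the highest mural sum (70.0 TPM, beside 34.6 and 41.6 TPM in the others and 35.2 to 45.6 TPM in controls). That mural sum was mainly Mcam (40.2 TPM), Abcc9 (12.3 TPM) and Tagln (11.2 TPM). Of 6 mural markers tested, 4 had higher and 2 had lower means, with Rgs5 lowest at -1.42 (SE 0.76). The sums of 6 artery markers, which include the ligand gene Dll4, were 65.9, 69.8 and 68.5 TPM for the libraries labelled Srsf3 cKO. All lay above the 49.9, 50.9 and 50.2 TPM of controls. Unc5b alone gave 31.4, 37.4 and 40.7 TPM of the former and 33.4, 30.3 and 29.7 TPM of the latter. The 5 artery markers tested all had higher means, 3 at an unadjusted p under 0.05. Gja5 was nevertheless 1.47 TPM in the first library labelled Srsf3 cKO, beside 2.24 to 2.57 TPM in controls. All 8 ectoderm markers tested had higher means as well, 5 at an unadjusted p under 0.05, with a median of 1.94, at sums of 9.35 to 18.4 TPM. The same first library had the lowest facial mesenchyme sum, 965 TPM, and the highest periocular mesenchyme sum, 183 TPM, beside 53.4 and 65.5 TPM in the others and 14.1 to 33.6 TPM in controls. All 7 neuron and glia markers tested had lower means, 4 at an unadjusted p under 0.05, with a median of -0.99. Facial mesenchyme markers had lower means for 7 of 8 genes, 2 at an unadjusted p under 0.05, with a median of -0.53. The part of these cells in the values of Notch1, Heyl, Jag2 and Hey2 was not tested.

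Of the other pathway genes, 41 were tested and 0 were called by edgeR, by DESeq2 or by limma on TPM values, with 6 higher and 3 lower at an unadjusted p under 0.05, beside 12.2% of all genes in either direction. Their median log2 difference was -0.03. The smallest p-values belonged to Mib2, Notch4 and Lfng. Mib2, a ubiquitin ligase gene of ligand endocytosis, had 41.2, 42.5 and 51.1 CPM for controls and 32.6, 26.5 and 34.2 CPM for the libraries labelled Srsf3 cKO (log2 difference -0.53, SE 0.14, adjusted p = 0.277). Lfng had 1.82, 2.63 and 3.42 CPM for controls and 8.24, 4.70 and 4.51 CPM for the libraries labelled Srsf3 cKO (log2 difference 1.14, SE 0.36, adjusted p = 0.317). Neither gene had groups that overlapped.

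In the palatal shelf, PI3K was compared with wild type to ask how the knock-in allele of Pdgfra bears on gene levels. No member passed an FDR of 0.05 in edgeR, where 0 of 16525 genes did (0%). At an unadjusted p under 0.05 there were 0 members, beside 2.14% of all genes, and the groups of 0 members failed to overlap, beside 6.29% of all genes. DESeq2 and limma on log2(TPM + 1) also called 0 members, where they called 4 of 27503 and 0 of 16525 genes. The mean was higher in PI3K for 8 members and lower for 2, with a median log2 difference (PI3K minus wild type) of 0.16 over the members and -0.01 over all genes, and a range from -0.19 for Dll1 to 0.32 for Hey1. For the receptors, the 95% intervals were -0.10 to 0.38 for Notch1, -0.10 to 0.61 for Notch2 and -0.06 to 0.30 for Notch3. They were wider for Jag2 (-0.53 to 0.59) and Hey2 (-0.96 to 0.66).

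The second PI3K library stood apart in several members. It had 144 CPM of Jag1, beside 79.0 and 77.5 CPM in the other PI3K libraries and 75.1, 90.1 and 85.3 CPM in wild type. It also had the most Jag2 (80.5 CPM, beside 57.4 and 42.1 CPM, and 48.6, 69.5 and 59.0 CPM in wild type). Hes1 was 76.7 CPM in it, beside 50.2 and 51.9 CPM, and 44.0, 54.0 and 47.8 CPM in wild type. Without this library the log2 differences were -0.09 for Jag1, -0.24 for Jag2 and 0.07 for Hes1, beside 0.26 (SE 0.24), 0.03 (SE 0.24) and 0.30 (SE 0.18) with all 6 libraries. The third PI3K library, with the lowest ectoderm sum of 394 TPM, had the lowest Jag2 of the 6 palatal libraries, and the part of ectoderm in that value was not tested. Skeletal muscle markers had higher means in PI3K for 8 of 8 genes, 3 of them with an unadjusted p under 0.05 in edgeR, at sums of 38.0 to 228 TPM against 4.32 to 57.3 TPM, and their part in the members' values was not tested.

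Of the other pathway genes, 43 were tested in this comparison and 0 were called by edgeR, by DESeq2 or by limma on TPM values. Their median log2 difference was 0.04. At an unadjusted p under 0.05 in edgeR there was 1 gene, beside 2.14% of all genes tested. That gene was Hes6, which encodes a Hes-related protein that opposes Hes1, with 32.8, 26.1 and 31.1 CPM in PI3K and 23.7, 27.1 and 22.6 CPM in wild type (log2 difference 0.30, SE 0.13, adjusted p = 0.9997). Next by p came Dlk1 (0.39, SE 0.18) and the arterial ligand gene Dll4 (0.59, SE 0.33), which was highest in the same second PI3K library, at 19.1 CPM beside 7.12 to 9.94 CPM in the other 5.

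Because the series concerns splicing, the effective length of each member was also compared. It is the estimated count divided by the TPM value, and it moves when transcripts of different length make up a gene's total. Of 10 members tested for palatal shelf, 0 passed the FDR threshold of 0.05 in limma (0.00775% of 12907 genes did) and 0 passed an unadjusted p of 0.05 (3.9% of genes did). The log2 differences in the palatal shelf ran from -0.04 for Notch1 to 0.05 for Heyl. In the maxillary process 9 members were tested, since Dll1 had fewer than 50 counts in a library, and again 0 passed the FDR (0.00909% of 11002 genes did) and 0 the unadjusted p (5.16% of genes did). Jag2 was the most variable there, with centred log2 values of 0.73, -0.08 and 0.50 in controls against 0.86, 0.43 and 0.16 for the libraries labelled Srsf3 cKO, which overlapped (difference 0.10, 95% interval -0.64 to 0.84). Exons and junctions were not analysed here.

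Genes that varied most like each member were sought within groups, by Pearson's r of log2(CPM + 1) over the 12 libraries after each group mean was subtracted, among 11435 genes with a mean of at least 5 CPM. These r values describe shared variation of the same libraries, which also share depth and cell make-up, and they carry no test. Hey2 was most like Nfix (r = 0.98), Epha5 (r = 0.98) and Hpgd (r = 0.98). In the 3 maxillary controls Hpgd had 11.7, 35.9 and 90.3 CPM, in the order of the Hey2 values of 21.0, 54.1 and 154 CPM, and in the libraries labelled Srsf3 cKO it had 8.18, 15.95 and 47.9 CPM, in the order of 4.91, 13.1 and 42.1 CPM. Jag2 was most like Ston2 (r = 0.96), Gjb2 (r = 0.94) and Sgsm3 (r = 0.92), and Jag1 like Lrig1 (r = 0.96), Smarca2 (r = 0.96) and Auts2 (r = 0.95). Notch1 was most like Hs6st2 (r = 0.97), Lpp (r = 0.96) and Ppp1r13b (r = 0.96), Notch2 like Gm43737 (r = 0.91), Ash1l (r = 0.88) and Wars2 (r = 0.88), and Notch3 like Tmem198b (r = 0.98), Fbxo3 (r = 0.98) and Sema3g (r = 0.96). Hes1 was most like Gtf2e2 (r = 0.97), Reps1 (r = 0.96) and Slc4a7 (r = 0.96), Hey1 like 6820431F20Rik (r = 0.98), B4galt7 (r = 0.96) and Carmil1 (r = 0.96), and Heyl like Gdpd5 (r = 0.97), Arap3 (r = 0.97) and Ly6h (r = 0.96). Between members, r was 0.81 for Notch1 with Notch3, 0.80 for Notch1 with Heyl, -0.61 for Hey2 with Heyl and -0.69 for Hey2 with Hes1. Dll1 averaged under 5 CPM and was left out.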

How the data were processed

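Estimated counts and TPM values per gene were deposited by the authors as 1 table of each for palatal shelf and for maxillary process, with 1 column per library. The submitters' processing notes name STAR 2.7.0, Salmon 1.1.0, DESeq2 1.28.1 and build mm10, with no roles. TPM is scaled to a fixed total, so depth was read from the estimated counts. All 53392 versioned Ensembl identifiers were present. Symbols came from GENCODE M21, which matched 53355 of them without the version.

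The estimated counts were rounded and tested with edgeR 4.0.16 (quasi-likelihood F-test, TMM, default filter on low counts, Benjamini-Hochberg adjustment over all genes tested, FDR threshold 0.05) in R 4.3.3, each comparison on its own 6 libraries. Printed CPM used TMM factors of all 12 libraries. Adjusted p-values are from edgeR unless another tool is named. The palatal and maxillary tables are separate, and the wild-type palatal shelf and maxillary control libraries enter 2 comparisons each. Effective length was tested with limma 3.58.1 on genes with at least 50 counts in all 6 libraries. Alternatives were other size factors and filters, DESeq2 1.42.0, limma on TPM values (log2 after adding 1 or 0.1), the replicate number as a block, and leaving out each library. The tests were tried on simulated counts.

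The members, the pathway genes and the marker lists were chosen with earlier results of these data known. Named were the members, pathway genes past the FDR, the 3 with the smallest p in each comparison, the targeted genes, and the 3 genes most like each member. Replicate libraries differed by more than sampling noise, with r of 0.972 to 0.990 on the log2 scale.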

Additional observations from a re-analysis of the deposited data

How the results depend on the processing

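Across 14 alternatives for each comparison within a tissue and 15 for the comparison of tissues, 131 of 140 values of the members kept their direction and side of the threshold for PI3K, 131 of 139 for Srsf3 cKO and 138 of 150 for palatal shelf against maxillary process. The cause of each change was not tested. In the Srsf3 cKO comparison 1 member was called with no filter on low counts (Jag2), 1 with the replicate block (Hey2, -1.996, adjusted p = 0.00597) and 2 with DESeq2. Over all genes that comparison gave 12 calls, 143 with no filter, 40 with the block, 376 with DESeq2, 7 with log2(TPM + 1), and 2 to 29 when a library was left out. PI3K gave 4 calls with DESeq2. In the tissue comparison 70.9% of calls were higher in palatal shelf with log2(TPM + 1) and 71.3% with log2(TPM + 0.1), beside 53.7%, and the median of all genes was 0.16 and 0.19, and 0.29 with no filter. Members called there were 6 to 8 when a library was left out.

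Directions turned for Jag2 in PI3K, at -0.0064 with the block, -0.0149 with log2(TPM + 1) and -0.0156 with log2(TPM + 0.1), and in the tissue comparison for Notch2 at 0.0504 and 0.052 and Adam10 at 0.0468 and 0.0475 with those pseudocounts. Leaving out 1 library gave, for PI3K, -0.089 to 0.43 for Jag1, -0.24 to 0.24 for Jag2, -0.35 to 0.0191 for Dll1 and -0.44 to 0.11 for Hey2. For Srsf3 cKO it gave -0.14 to 0.10 for Notch2, -0.0152 to 0.38 for Notch3, -0.92 to 0.44 for Jag1 and -0.72 to 0.92 for Dll1, and for the tissue comparison -0.73 to 0.0363 for Hey1. Depth limits Dll1 in maxillary libraries, with 7 to 39.0 counts each. Same-numbered libraries did not deviate together throughout (r of 0.59, 0.20 and -0.23 in palatal shelf, 0.06, 0.11 and 0.26 in maxillary process). With 3 libraries in each group, such values cannot settle whether the numbers pair the samples.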
